A study of Mus musculus with 2 samples.

Results

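The estrogen-related receptors and the regulators that work with them on mitochondrial genes were followed across the cell classes of the mouse thick ascending limb (TAL). The group held 8 of the 32227 genes counted: the receptors Esrra, Esrrb and Esrrg, the coactivators Ppargc1a and Ppargc1b, the fatty acid receptor Ppara, and the mitochondrial biogenesis factors Nrf1 and Tfam. They were taken by name for their known roles, but with earlier results of these data known. All 8 were counted in every class of both libraries, and all 8 reached 50 counts over the pair of groups in each comparison. Class membership was read from raw counts of other genes among barcodes with at least 10 counts of Slc12a1, which encodes the cotransporter NKCC2. A barcode with at least 3 counts of Nos1 plus Pappa2 was called macula densa (MD), otherwise one with at least 2 of Tmem52b was called TAL-β, otherwise one with at least 2 of Tmem207 plus Gpc5 was called TAL-γ, and the rest were called TAL-α.

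Estrogen-related receptors are nuclear receptors without a known natural hormone, and they bind DNA at genes of the citric acid cycle, fatty acid oxidation and the respiratory chain. PGC-1α and PGC-1β, the products of Ppargc1a and Ppargc1b, bind these receptors and Ppara and raise transcription of their targets, while Nrf1 and Tfam act on nuclear genes for respiratory proteins and on mitochondrial DNA itself. TAL cells reabsorb salt against a gradient and are rich in mitochondria, and MD cells are the small patch of TAL cells that senses luminal salt.

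Nuclei came from kidneys of male B6 mice with the genotype label WT that carried Slc12a1-CreERT2 and the INTACT allele, a GFP-tagged nuclear membrane protein switched on by Cre, all after tamoxifen and with age given as 12 and no unit. The driver is designed to label only cells with an active Slc12a1 promoter, and GFP-positive nuclei were sorted before PIPseq library preparation. A cortex library was made from a superficial strip and a medulla library from all remaining tissue, which therefore also held deep cortex. How many animals entered each library was not given in the sources used here. With 1 library per region, no replicate error exists, region and library cannot be told apart, and each 95% interval covers counting error only.

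The cortex library held 5442 barcodes and 16457300 counts, and the medulla library held 8121 barcodes and 20947211 counts. Median counts per barcode were 2427 and 2430, and no barcode was shared. Of all 13563 barcodes, 13185 fell in the classes. In cortex 2824 were TAL-α, 1493 TAL-β, 248 TAL-γ and 653 MD, and in medulla 3776 were TAL-α, 571 TAL-β, 3542 TAL-γ and 78 MD. Levels are given as CPM, the summed counts of a gene in a class scaled to the total counts of that class. Markers not used by the rule followed the MD name, with Robo2 at 4789 CPM in cortical MD against 475 CPM in cortical TAL-α. They followed the TAL-β name in both libraries, with Kcnj10 at 139 against 17.8 CPM in cortex and 170 against 13.2 CPM in medulla. The cortical TAL-γ class did not match its name, since Cldn16 at 153 CPM stood as high there as Cldn10 at 156 CPM, so it is given below only as the class its rule defines. Among TAL-β barcodes, 475 in cortex and 359 in medulla also met the TAL-γ cut. Among MD barcodes, 84 in cortex and 14 in medulla also met the TAL-β or TAL-γ cut.

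Esrrg was the receptor with the smallest span over the groups and the only one with its highest levels in MD. Its product, ERRγ, is an active receptor found in oxidative tissues. In cortex Esrrg stood at 4312 CPM in TAL-α, 3171 in TAL-β, 3372 in TAL-γ and 5560 in MD. In medulla it stood at 5084 CPM in TAL-α, 3405 in TAL-β, 5256 in TAL-γ and 5915 in MD. The 2 MD groups led the order and were not separated by counting error (ratio 1.06, 95% interval 0.995 to 1.14), medullary TAL-γ and TAL-α and cortical TAL-α followed, and the TAL-β groups with cortical TAL-γ came last. The whole span was 1.87 (1.75 to 1.99), the narrowest of the 3 receptors. At least 98.8% of the barcodes of each class held an Esrrg count.

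Esrrb, whose product ERRβ is best known from stem cells and the inner ear, had its lowest levels in MD, where Esrrg had its highest. Outside MD both receptors were lower in TAL-β than in TAL-α of the same library, and higher in medulla than in cortex. In cortex Esrrb stood at 649 CPM (632 to 667) in TAL-α, 452 (434 to 471) in TAL-β, 663 (609 to 721) in TAL-γ and 170 (151 to 191) in MD. In medulla it stood at 971 CPM (951 to 991) in TAL-α, 760 (720 to 802) in TAL-β, 961 (940 to 981) in TAL-γ and 145 (92.6 to 215) in MD, the last from 24 counts. Medullary TAL-α and TAL-γ shared the top of the order within counting error, cortical TAL-γ and TAL-α were not separated from each other, and the 2 MD groups were not separated at the bottom. The span from highest to lowest was 6.72 (4.51 to 10.5).

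Esrra, the most widely expressed of the receptors in the body, followed a simple step. Its 6 groups outside MD lay between 133 and 149 CPM, and no neighbours in that order differed beyond their counting intervals. Groups farther apart could differ. Without barcodes with at least 3 counts of another cell type's markers, medulla over cortex in TAL-α was 0.8965 (0.819 to 0.982). In cortical MD Esrra stood at 58.8 CPM (47.7 to 71.6, 98 counts), and medullary MD gave 60.2 CPM (28.9 to 111, 10 counts). The MD groups were thus below all others and close to each other.

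Ppargc1a, whose product is the inducible coactivator PGC-1α, had a span close to that of Esrrb at 6.54 (5.01 to 8.71). In cortex it stood at 776 CPM in TAL-α (757 to 796), 1111 in TAL-β (1083 to 1140), 1211 in TAL-γ (1137 to 1288) and 342 in MD (314 to 371). In medulla it stood at 1630 CPM in TAL-α (1605 to 1656), 1697 in TAL-β (1637 to 1759), 2128 in TAL-γ (2098 to 2158) and 325 in MD (244 to 424, 54 counts). All 3 medullary classes outside MD were above every cortical class, and medullary TAL-γ was the highest of all. The step from cortical TAL-α down to cortical MD was 2.27 (2.08 to 2.48), and the 2 MD groups were not separated.

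Ppargc1b, whose product is PGC-1β, had less contrast than Ppargc1a. Its 6 groups outside MD lay between 223 and 252 CPM, and no neighbours among them were separated. Groups farther apart could differ. Without barcodes with at least 3 counts of another cell type's markers, TAL-β over TAL-α in cortex was 0.894 (0.813 to 0.9825). Cortical MD gave 134 CPM (117 to 153), and medullary MD gave 102 CPM (59.6 to 164, 17 counts). The relation between the 2 coactivators therefore shifted with class and library: Ppargc1b gave 32.1 counts per 100 of Ppargc1a in cortical TAL-α, 15.4 in medullary TAL-α, 11.1 in medullary TAL-γ and 39.3 in cortical MD.

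Nrf1, a transcription factor for nuclear genes of the respiratory chain, had the smallest span of the 8 members. It stood between 190 CPM in medullary TAL-β and 223 CPM in medullary MD, and the span was 1.18 (0.814 to 1.65). No neighbours in the order of 8 groups were separated, but groups farther apart could differ. Without barcodes with at least 3 counts of another cell type's markers, TAL-β over TAL-α in cortex was 1.116 (1.008 to 1.235). Medulla over cortex in TAL-β was then 0.843 (0.729 to 0.973). Tfam, which packages and transcribes mitochondrial DNA, was counted too rarely for an order, with 6.02 to 17.2 CPM and 1 count in medullary MD. Its span of 2.86 had an interval from 0.5 to 114, so a difference between classes was not detectable at this depth.

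**Figure D1:**
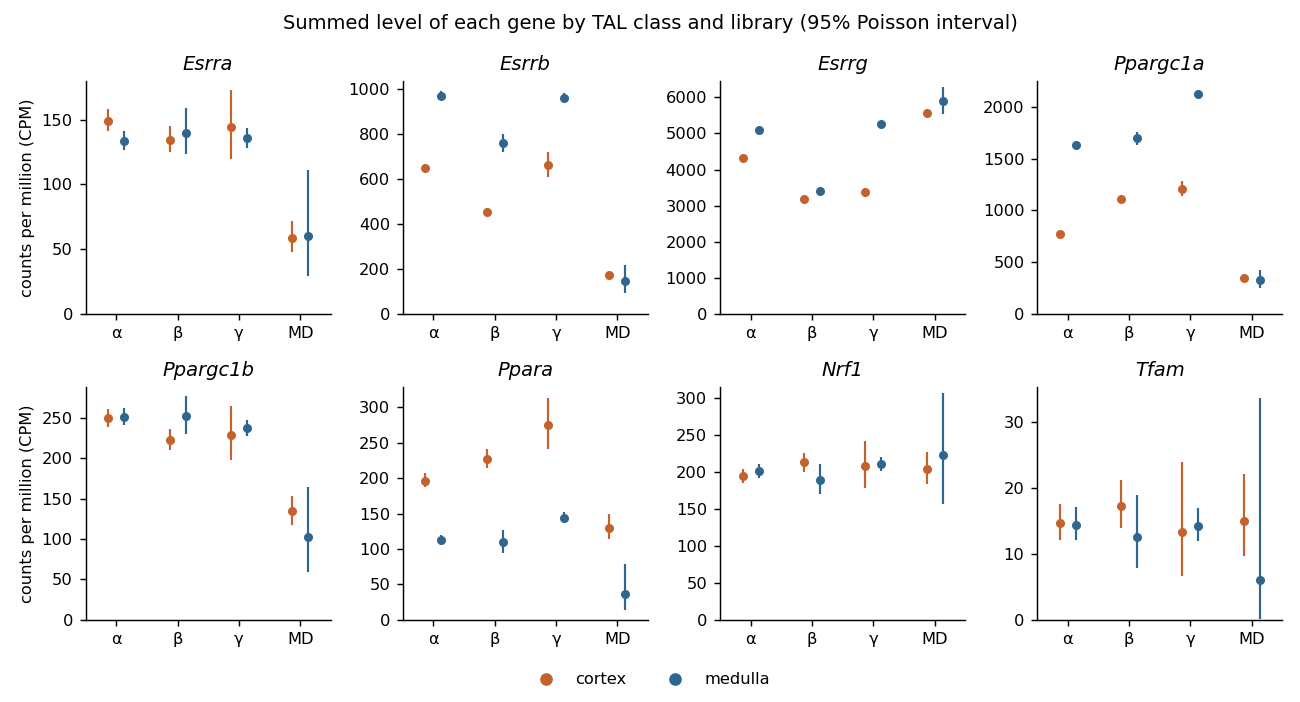
Level of each of the 8 genes in CPM (vertical axes, from 0) in the 4 classes (horizontal axes), with cortex and medulla in separate colours and bars for the 95% counting interval. The MD points lie lowest for Esrra, Esrrb, Ppargc1a and Ppargc1b in both libraries and highest for Esrrg, at 5560 and 5915 CPM.

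The question of how MD differs from the transporting TAL was read as the ratio of MD to TAL-α within a library, and a gene was called past the fold at a ratio of at least 1.5 either way. In cortex 5 of 8 members were lower in MD past that fold and none was higher, where 12.3% of the 11465 genes with at least 50 counts were lower and 12.1% higher. Esrrb was the farthest at 0.262 (0.232 to 0.296), which is 3.81-fold lower. Esrra followed at 0.394 (0.317 to 0.485), Ppargc1a at 0.441 (0.404 to 0.480), Ppargc1b at 0.539 (0.467 to 0.619) and Ppara at 0.662 (0.572 to 0.764), the last just past the fold. Esrrg was 1.29 (1.26 to 1.32), Nrf1 1.05 (0.934 to 1.19) and Tfam 1.02 (0.635 to 1.58). The members' median log2 ratio was −0.74, against 0.03 over all genes compared.

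In medulla 6 of 8 members were lower in MD than in TAL-α past the fold and none was higher, where 28.8% of the 10775 genes were lower and 23.5% higher, 52.3% in all. The 78 medullary MD barcodes make these ratios less precise. Esrrb was 0.149 (0.0953 to 0.222), Ppargc1a 0.200 (0.150 to 0.260), Ppara 0.320 (0.117 to 0.699), Ppargc1b 0.408 (0.237 to 0.654) and Esrra 0.452 (0.216 to 0.833). The sixth, Tfam, rested on 1 count and its interval of 0.0105 to 2.37 held 1. Esrrg was 1.16 (1.09 to 1.24) and Nrf1 1.11 (0.777 to 1.53), both on the same side of 1 as in cortex.

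Against cortical TAL-β, 5 members were lower in cortical MD past the fold and 1 was higher, where 15.2% of 10705 genes were lower and 11.8% higher. The 5 were Ppargc1a at 0.308, Esrrb at 0.377, Esrra at 0.437, Ppara at 0.572 and Ppargc1b at 0.604, and the 1 higher was Esrrg at 1.75 (1.71 to 1.80). This comparison shares its MD barcodes with that against cortical TAL-α.

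**Figure D2:**
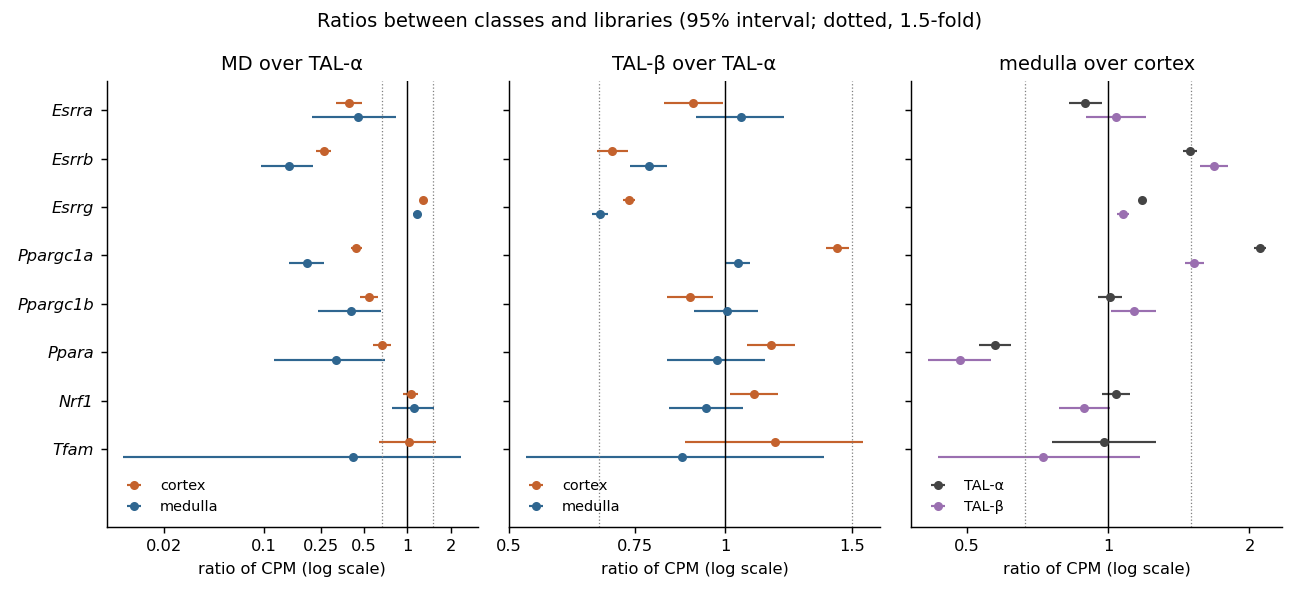
Ratio of CPM (log axes) for each gene between MD and TAL-α, TAL-β and TAL-α, and medulla and cortex, with 95% counting intervals as bars and dotted lines at 1.5-fold. Esrrb lies farthest to the left for MD in both libraries (0.262 and 0.149), and Ppargc1a farthest to the right for medulla over cortex in TAL-α (2.10).

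As a description of how levels lay around the MD threshold, cortical barcodes were ordered by their counts of Nos1 plus Pappa2, the genes the rule itself uses, so these steps are no independent evidence for the MD contrast. Esrrb stood at 595 CPM with no such count, 472 with 1, 148 with 2, 186 with 3 or 4, 178 with 5 to 9 and 142 with 10 or more. Ppargc1a stood at 955, 706, 423, 434, 331 and 256 CPM over the same steps, and Esrra at 147, 116, 92.6, 76.5, 54.0 and 46.1 CPM. Esrrg went up over these steps, from 3753 CPM with no count through 4426 and 5296 to 5723, 5478 and 5497 CPM. The 133 barcodes just outside the MD threshold, with 2 counts, thus had levels of Esrrb and Esrrg near those of barcodes inside it.

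**Figure D3:**
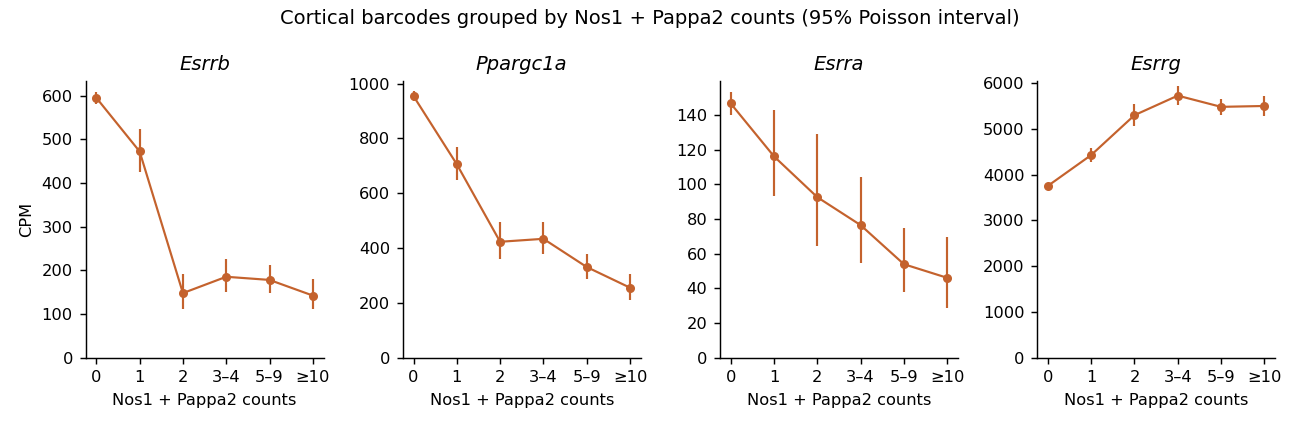
CPM (vertical axes) of members in cortical barcodes grouped by their counts of Nos1 plus Pappa2 (horizontal axes), with 95% counting intervals. Esrrb drops from 595 to 148 CPM between 0 and 2 counts while Esrrg is at 3753 and 5296 CPM at those steps.

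The summed counts of 2 members in a class were also set against each other, which restates the CPM values above and is no further check. Esrrb gave 15.1 counts per 100 of Esrrg in cortical TAL-α and 19.1 in medullary TAL-α, but 3.06 and 2.44 in MD of cortex and medulla. Ppargc1a gave 18.0 and 32.1 counts per 100 of Esrrg in TAL-α, 35.1 and 49.9 in TAL-β, and 6.15 and 5.50 in MD. After each barcode was thinned to 1000 counts, neither Esrrb nor Ppargc1a was seen in 77.3% of cortical MD barcodes (73.9 to 80.5) and 82.1% of medullary MD barcodes (71.7 to 89.8). The same share was 30.3% in cortical TAL-α and 6.53% in medullary TAL-γ. Both genes were seen together in 23.2% of thinned cortical TAL-α barcodes, against a product of their single shares of 21.5%, and in 49.1% of medullary TAL-γ barcodes, against 49.0%. In MD the share seen together was above the product, at 2.757% against 1.405% in cortex (18 barcodes) and 3.846% against 1.183% in medulla (3 barcodes). The MD classes held 84 barcodes in cortex and 14 in medulla that also met the TAL-β or TAL-γ cut. The part of those barcodes in these shares was not tested.

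Shares of barcodes with a count were read beside the barcodes with fewer than 10 Slc12a1 counts, 224 in cortex with a median of 2606 counts and 154 in medulla with a median of 3870. Esrrb was seen in 70.2% of cortical TAL-α barcodes (median 2425 counts) and 83.2% of medullary ones (median 2404), against 30.8% and 13.6% of those low-Slc12a1 barcodes. In MD it was seen in 16.4% of cortical barcodes (median 1883 counts) and 16.7% of medullary ones (median 1995), and after thinning in 8.12% and 11.5% against 16.1% and 7.84% in the low-Slc12a1 barcodes. After thinning, Ppargc1a was seen in 17.3% of cortical and 10.3% of medullary MD barcodes, against 39.7% and 25.5% of low-Slc12a1 barcodes (30.5% and 21.8% against 68.8% and 51.3% before thinning). The low-Slc12a1 barcodes held 9494 CPM of proximal tubule markers in cortex and 10114 in medulla, so they are not a cell type known to lack either gene, and no expression in MD is read from these shares. In raw barcodes of at most 100 counts, which hold mainly free RNA, the level of Esrrb was 431 CPM for the cortex library and 821 for the medulla library, and that of Ppargc1a 783 and 1551 CPM, above the MD level in each case. Subtracting the free RNA profile took 49.3% of the MD counts in cortex and 54.0% in medulla. That subtraction left no MD to TAL-α ratio for Esrrb or Ppargc1a in either library. Once barcodes with other cell types' markers were left out, the same step took 1.95% in cortex and 5.57% in medulla. Both genes then stayed lower in MD past 1.5-fold. The share taken was set by the summed proximal tubule marker counts of a class relative to those in the free RNA. No such count was held by 78.1% of cortical and 87.2% of medullary MD barcodes. Which estimate is nearer to the true share of free RNA in MD was not tested.

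Between TAL-β and TAL-α, no member was past the fold in cortex, where 9.59% of 12244 genes were (5.44% higher and 4.15% lower), nor in medulla, where 14.9% of 11129 were (6.97% higher and 7.95% lower). Inside that limit Esrrg was lower in TAL-β at 0.735 (0.722 to 0.749) in cortex and 0.670 (0.652 to 0.688) in medulla, and Esrrb was lower at 0.697 (0.663 to 0.732) and 0.782 (0.738 to 0.829). Ppargc1a was higher in cortical TAL-β at 1.43 (1.38 to 1.49) but only 1.04 (1.00 to 1.08) in medulla. Esrra, Ppargc1b, Nrf1 and Tfam lay between 0.870 and 1.17 in both libraries. Without barcodes that held at least 3 counts of another cell type's markers, Ppargc1a was past the fold in cortex at 1.60 and Esrrg at 0.660, and Esrrg in medulla at 0.648. The shares of all genes were then 4.86% higher and 7.09% lower in cortex, and 6.73% higher and 9.08% lower in medulla.

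TAL-γ in medulla stood with TAL-α for the receptors and above it for Ppargc1a. The rule called 44.5% of medullary TAL barcodes TAL-γ, a larger share than in the study's own clustering. Of those called here, 501 held only the 2 counts the rule asks for. Another 748 barcodes, called TAL-α, held 1 such count. Over medullary TAL-α and TAL-γ barcodes, Ppargc1a stood at 1581 CPM with no count of Tmem207 plus Gpc5 and 1836 CPM with 1. With 2 or 3 counts it stood at 2025 CPM, with 4 to 7 at 2117 and with 8 or more at 2203. These steps use the genes of the rule, so they are no independent evidence for the contrast. How far the 2 classes mix was not measured. No member was past the fold against TAL-α, where 7.79% of 12347 genes were (2.52% higher and 5.27% lower). Ppargc1a was 1.31 (1.28 to 1.33) and Ppara 1.28 (1.18 to 1.39), while Esrrb was 0.989 (0.960 to 1.02) and Esrrg 1.03 (1.02 to 1.05). Against TAL-β, Esrrg alone was past the fold at 1.54 (1.503 to 1.586), 1 of 8 members where 9.04% of 11001 genes were higher and 9.68% lower, and Esrrb was 1.26 (1.19 to 1.34) and Ppargc1a 1.25 (1.21 to 1.30).

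Between regions, Ppargc1a was the member with the largest difference in TAL-α, at 2.10 (2.04 to 2.16) for medulla over cortex. It was the only member higher past the fold there, where 4.79% of 12585 genes were higher, and Ppara was the only one lower at 0.575 (0.531 to 0.622), where 16.5% were lower, with 21.3% past it in either direction. That direction of Ppara turned over, to 1.66, without barcodes holding other cell types' markers. Esrrb lay at 1.496 (1.446 to 1.548), just inside the fold. Esrrg was 1.18, Esrra 0.894, Ppargc1b 1.01, Nrf1 1.04 and Tfam 0.980.

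In TAL-β, Esrrb at 1.68 (1.57 to 1.80) and Ppargc1a at 1.53 (1.46 to 1.60) were higher in medulla past the fold, 2 of 8 where 3.28% of 10489 genes were higher. Ppara was lower at 0.483 (0.413 to 0.563), where 16.5% were lower, with 19.8% past it in either direction, and without the marked barcodes it was 1.56. Esrrg was 1.07, Esrra 1.04, Ppargc1b 1.13, Nrf1 0.891 and Tfam 0.728 (0.435 to 1.17). Without barcodes holding other cell types' markers, the ratio of Ppargc1a was 1.98 in TAL-α and 1.30 in TAL-β, and that of Esrrb 1.32 and 1.40, so both TAL-β values then fell inside the fold.

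The mitochondrially encoded transcripts moved between the libraries at the same time. All 12 of them with enough counts were lower in medullary than in cortical TAL-α past the fold, with a median log2 ratio of −1.13 against −0.07 over all genes, and all 11 in TAL-β, with a median of −1.41. Their summed level was 658 against 1401 CPM in TAL-α and 611 against 1547 CPM in TAL-β. In a library of nuclei these transcripts come from outside the nucleus. When they and the 50 most abundant genes were left out of the total, the medulla over cortex ratios in TAL-β were 1.74 for Esrrb and 1.58 for Ppargc1a. Any other part of these transcripts in the members' ratios was not tested.

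Ppara, a receptor for fatty acids that is known for its high level in proximal tubule, had the highest level outside the TAL classes. It stood at 196 CPM in TAL-α, 227 in TAL-β, 275 in TAL-γ and 130 in MD of cortex, and at 113, 110, 144 and 36.1 CPM in medulla, the last from 6 counts. In barcodes with fewer than 10 Slc12a1 counts the level was 563 CPM (512 to 619) for the cortex library and 492 CPM (437 to 552) for the medulla library, above every TAL class.

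Markers of proximal tubule had the same order as Ppara over the cortical classes, but not over the medullary ones. The 9 genes of that list were all counted in each TAL class. In cortex they summed to 2765, 3459, 3777 and 2020 CPM in TAL-α, TAL-β, TAL-γ and MD. In medulla they summed to 486, 685, 461 and 590 CPM, with the lowest sum in TAL-γ, the medullary class where Ppara was highest. Of cortical TAL-α barcodes, 15.1% held at least 3 such counts, against 2.17% of medullary ones. Within cortical TAL-α, Ppara stood at 58.2 CPM in barcodes with no proximal tubule count, 54.2 with 1 or 2, 73.3 with 3 to 9 and 634 with 10 or more. The last group was 344 barcodes, 12.2% of the class, and held 77.8% of its Ppara counts. In cortical TAL-β, 16.5% of the barcodes held 85.3% of them. In medullary TAL-α the same group was 1.56% of barcodes and held 17.7% of the counts.

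Without barcodes holding other cell types' markers, Ppara stood at 57.4, 52.2, 94.4 and 29.5 CPM in TAL-α, TAL-β, TAL-γ and MD of cortex and at 95.2, 81.2, 128 and 33.8 CPM in medulla. The region ratio then turned over, to 1.66 (1.45 to 1.89) in TAL-α and 1.56 (1.21 to 2.00) in TAL-β. The MD to TAL-α ratio was 0.513 (0.351 to 0.729) in cortex, from 35 MD counts. In medulla it was 0.356 (0.115 to 0.833), from 5 MD counts. Leaving these barcodes out thus changed the direction of the regional ratio of Ppara, while both MD ratios stayed on the same side of 1. Barcodes with 1 or 2 marker counts were kept, and the source of the Ppara counts was not tested. The MD ratios of Esrrb (0.198 in cortex and 0.162 in medulla) and Ppargc1a (0.294 and 0.205) were no nearer to 1 in cortex and close to their first values in medulla after the same step.

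**Figure D4:**
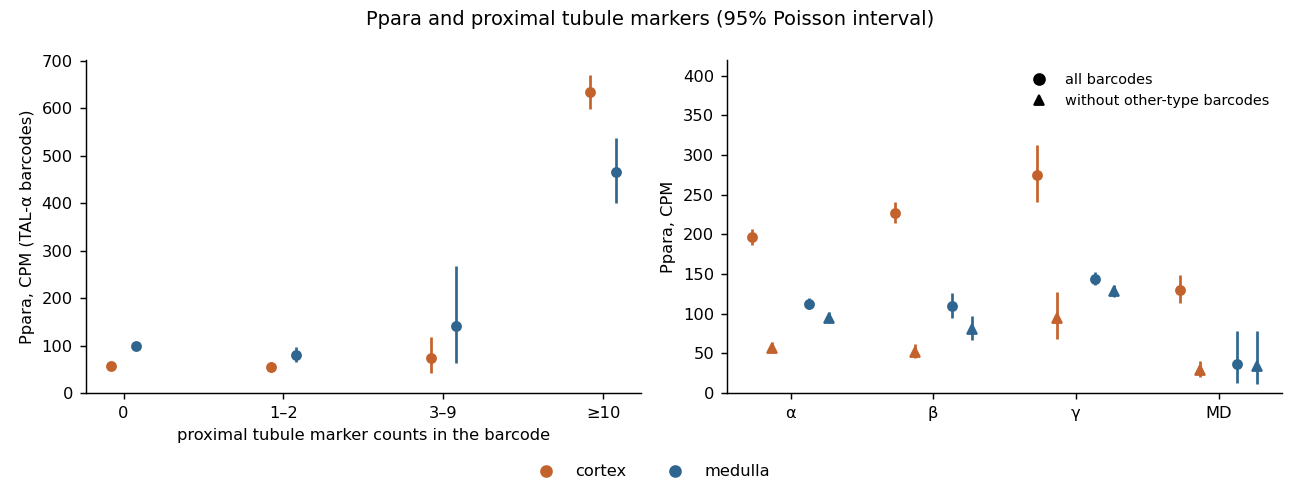
Ppara level in CPM (vertical axes): left, by the number of proximal tubule marker counts in a barcode; right, by class in all barcodes and without barcodes holding other cell types' markers, with 95% counting intervals. Cortical TAL-α goes from 58.2 CPM with no marker count to 634 CPM with 10 or more, and from 196 to 57.4 CPM once marked barcodes are left out.

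The deposited clusters were made without the class rule, but each was named here by the most common class of its TAL barcodes. Levels were summed over those TAL barcodes, so the cluster names and levels are not independent of the rule. In the clusters named MD, 75.95% of them in cortex and 71.72% in medulla were MD by the rule. Esrrb and Ppargc1a were lowest in these clusters as well. Among 11 cortical clusters with at least 50 TAL barcodes, Esrrb was lowest at 51.3 CPM in the cluster whose barcodes were mostly MD and highest at 1063 CPM in a TAL-α cluster, and among 12 medullary clusters it ran from 74.8 CPM (MD) to 1197 CPM (TAL-α). Ppargc1a ran from 143 CPM (MD) to 1496 CPM (TAL-β) in cortex and from 150 CPM (MD) to 2405 CPM (TAL-γ) in medulla. Esrrg ran from 2711 CPM in a TAL-β cluster to 6502 CPM in the MD cluster of cortex, and its highest medullary cluster, at 7102 CPM, was TAL-α. Ppara reached 510 and 737 CPM in the 2 cortical clusters with 9482 and 11566 CPM of the proximal tubule list, and lay between 21.0 and 102 CPM in the others.

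**Figure D5:**
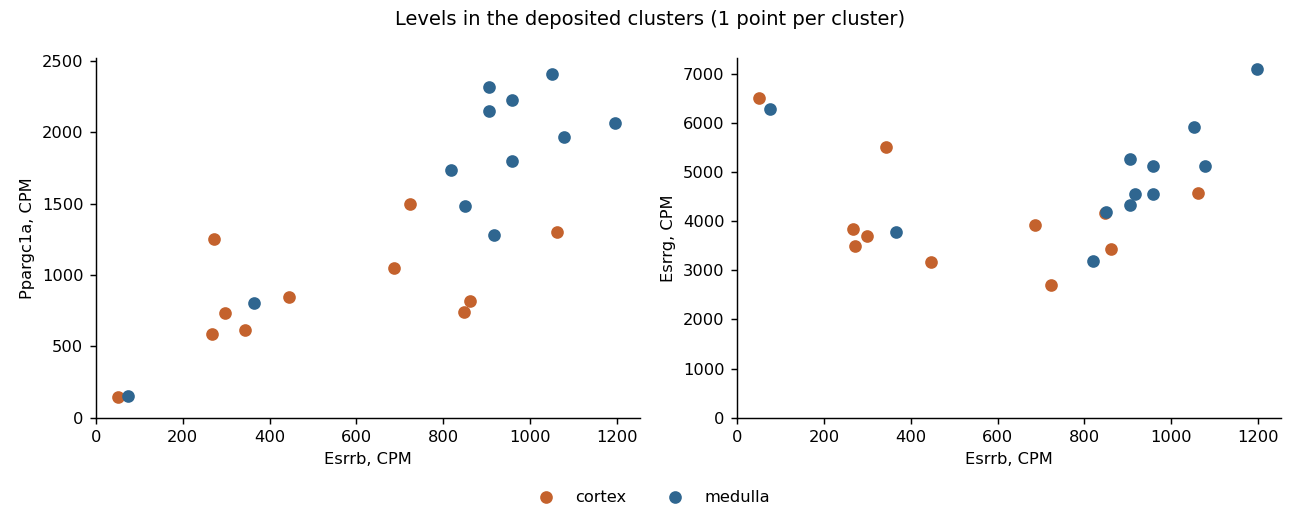
Level of Ppargc1a (left) and Esrrg (right) in CPM on the vertical axes against Esrrb in CPM on the horizontal axes, with 1 point per deposited cluster of at least 50 TAL barcodes and the libraries in separate colours. The points at the far left are the MD clusters, with Esrrb at 51.3 and 74.8 CPM, the lowest Ppargc1a (143 and 150 CPM) and Esrrg among the highest of their libraries.

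Genes that act downstream of or beside these regulators were counted by list. Of 25 genes of the citric acid cycle and pyruvate entry, 8 were lower and none higher past the fold in cortical MD against TAL-α, where 12.3% of all genes were lower and 12.1% higher, with a median log2 ratio of −0.47. In medullary MD 18 were lower and 3 higher, where 28.8% of all genes were lower and 23.5% higher, with a median of −0.90. Idh3a and Mdh2, enzymes of the cycle, stood at 0.428 and 0.522 in cortex. Of 15 fatty acid oxidation genes with enough counts, 1 was lower in cortical MD, Cpt1b, the carnitine palmitoyltransferase of muscle type, at 0.241 from 23 against 456 counts. In medullary MD 7 of 15 were lower, against 28.8% of all genes, and Cpt1b had 1 count. After barcodes with other cell types' markers were left out, 13 of the 25 cycle genes were lower in cortical MD, and of 14 fatty acid oxidation genes 5 were lower and 1 was higher, where 15.3% of all genes were lower.

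For the other lists in cortical MD, the counts are read against 12.3% of all genes lower and 12.1% higher. Of 16 co-regulators 1 was lower and none higher, of 14 genes for mitochondrial DNA expression 1 was lower and 2 were higher, of 8 mitochondrial dynamics genes 1 was lower, and of 3 PPAR and RXR partners with enough counts 1 was higher. Of 12 mitochondrially encoded transcripts 2 were lower, with a median log2 ratio of −0.457 and a summed ratio of 0.738 (0.701 to 0.776). In medullary MD, where 28.8% of all genes were lower and 23.5% higher, 7 of 11 of them were lower and none higher. There 3 of 17 co-regulators were lower and 2 higher, and 4 of 14 genes for mitochondrial DNA expression were lower and 1 higher. Of 8 dynamics genes 4 were lower and 1 higher, and of 3 PPAR and RXR partners 1 was lower. Between regions, no cycle gene of 25 was past the fold in TAL-α and 1 was higher in medullary TAL-β. Of 16 fatty acid oxidation genes in TAL-α, 3 were higher and 3 lower in medulla, where 4.79% of all genes were higher and 16.5% lower. Cpt1b at 2.17 and Pdk4, a kinase that restrains pyruvate oxidation, at 2.71 were among the higher ones. Without barcodes holding other cell types' markers, 4 of 15 were higher and none was lower. The shares of all genes were then 5.34% higher and 11.9% lower. Perm1, a muscle regulator that acts with PGC-1α and the estrogen-related receptors, was 2.82 for TAL-β over TAL-α in cortex from 50 against 27 counts, and 2.49 for medulla over cortex in TAL-α.

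The genes most like each member were found by Pearson's r of log2 CPM over the 8 class and library groups, among 10994 genes. The groups share 2 libraries and differ mostly in the MD step, so high values were common, with 510 genes above 0.9 for Esrrb and 444 for Ppargc1a. Closest to Esrrb were Slc25a3 (0.997), the mitochondrial phosphate carrier, Stxbp4 (0.995) and Wfdc15b (0.993). Closest to Ppargc1a were Pkhd1 (0.994), Ahcyl2 (0.994) and Dst (0.993), to Esrra Nedd4l (0.992), to Esrrg Ehbp1 (0.984), and to Ppara Timd2 (0.994), Prodh (0.993) and Cyp4a31 (0.991). Among the members themselves r was 0.951 for Esrrb with Ppargc1a, 0.932 for Esrra with Esrrb, and −0.43 for Esrrb with Esrrg.

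The genes' positions bear on how counts can be assigned. In GRCm39 with the GENCODE M39 models, Esrrg spans 606.1 kb of chromosome 1 (187340988 to 187947082, plus strand) and overlaps 3 genes on its own strand and 3 on the other. Esrrb spans 160.5 kb of chromosome 12 (86407887 to 86568409, plus strand) with 2 genes on the opposite strand. Ppargc1a spans 113.5 kb of chromosome 5 (51611592 to 51725068, minus strand) and overlaps 3 genes on its own strand and 2 on the other. Ppara lies on chromosome 15 (85618656 to 85687067, plus strand), Esrra on chromosome 19 (6888338 to 6899336, minus strand) and Nrf1 on chromosome 6 (30047892 to 30153462, plus strand). Among the members, only Ppara and Esrra overlap a protein-coding gene, Cdpf1 and Trmt112. The longest run of bases that transcripts of 2 receptors share exactly was 22, between Esrra and Esrrb, and 17 for Ppargc1a and Ppargc1b.

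Start regions are shown for Esrrb and Ppargc1a, a receptor and a coactivator that were both lower in MD than in TAL-α in each library, and for Ppara, whose start region held the only motif match among the members. The RefSeq promoter table (build GRCm38.p6, not the build of the gene models above) gave 12 regions for 7 of the 8 members, each from 250 bases before to 50 after a start. Each is written 5′ to 3′ on the gene's strand, and capitals mark the match.
Esrrb, chr12:86360867-86361166, plus strand: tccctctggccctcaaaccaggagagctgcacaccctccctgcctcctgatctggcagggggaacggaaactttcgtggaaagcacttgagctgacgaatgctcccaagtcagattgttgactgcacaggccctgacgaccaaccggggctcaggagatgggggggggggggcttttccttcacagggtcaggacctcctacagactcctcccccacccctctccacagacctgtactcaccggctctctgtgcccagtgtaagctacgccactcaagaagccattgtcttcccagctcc
Esrrb, chr12:86421394-86421693, plus strand: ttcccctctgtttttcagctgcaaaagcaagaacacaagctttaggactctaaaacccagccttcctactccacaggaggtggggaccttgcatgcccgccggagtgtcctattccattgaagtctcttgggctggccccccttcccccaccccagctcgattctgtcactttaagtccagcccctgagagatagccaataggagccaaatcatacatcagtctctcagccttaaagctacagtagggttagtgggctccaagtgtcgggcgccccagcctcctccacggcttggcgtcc
Ppargc1a, chr5:51567676-51567975, minus strand: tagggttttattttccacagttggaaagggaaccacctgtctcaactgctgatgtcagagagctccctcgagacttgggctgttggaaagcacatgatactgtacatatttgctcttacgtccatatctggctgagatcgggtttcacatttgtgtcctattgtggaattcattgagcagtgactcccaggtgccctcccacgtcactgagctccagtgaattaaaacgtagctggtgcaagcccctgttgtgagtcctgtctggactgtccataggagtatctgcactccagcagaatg
Ppara, chr15:85735526-85735825, plus strand: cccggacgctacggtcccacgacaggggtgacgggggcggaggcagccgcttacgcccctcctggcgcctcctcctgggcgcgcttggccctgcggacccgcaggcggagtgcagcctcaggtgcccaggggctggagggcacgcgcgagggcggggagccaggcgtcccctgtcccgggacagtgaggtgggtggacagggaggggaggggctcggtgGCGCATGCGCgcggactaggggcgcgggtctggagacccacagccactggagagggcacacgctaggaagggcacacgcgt

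Short motifs were searched on both strands of all 32851 promoters in that table. The estrogen-related receptor element TCAAGGTCA was in 0.423% of them, and the shorter AAGGTCA, which the longer one contains, in 4.72%. TGACGTCA, the cyclic AMP response element, was in 1.79%, the Nrf1 motif, the palindrome in capitals above, in 0.971% and the E-box CACGTG in 7.15%. Among the 12 member regions the only match was the Nrf1 motif in that of Ppara, starting at base 220. A match is a string of letters in this window and was not measured as a bound site.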

How the data were processed

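Counts were analysed for 1 cortex and 1 medulla library of sorted mouse TAL nuclei. The authors deposited raw and filtered matrices of counts per gene and barcode and a cluster table for each library, with reads aligned to GRCm39 and deconvolved in PIPseeker. The submitters' processing notes also name Seurat 4.4.0 and bcl2fastq, and the gene annotation release behind the counts was not given in the sources used here. The study's later removal of doublets and free RNA is not in these matrices, so both were left in and their removal was tried as an alternative.

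Groups were set by the label of each library and the class rule on raw counts. Counts were summed per class and library and divided by the class total to give CPM. CPM carries an exact Poisson 95% interval, a ratio an exact conditional binomial one and a share an exact Clopper-Pearson one, and all cover counting error only. A gene was compared where both groups together held at least 50 counts, and no p-value was computed because nuclei are not replicates. Total counts were 16457300 and 20947211, and 78 barcodes were the smallest group compared. All 8 members are named. From 7 lists with 106 genes, at most 3 genes per list and comparison with the largest ratio were open to naming, and Perm1, Pdk4 and Cpt1b are among them. For each member with at least 500 counts, the 3 genes with the highest r among those with at least 200 counts were taken. The members and lists were chosen with earlier results of these data known.

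Doublets were called with Scrublet, which marked 359 cortical barcodes (6.60%) and 3 medullary ones (0.0369%). The latter call had not worked, so the 5% of medullary barcodes with the highest scores, 406, were removed in that alternative. The scripts were tested on simulated data with known ratios. Python 3.11.15, numpy 2.4.6, scipy 1.17.1, pandas 2.3.3, scanpy 1.11.5 and matplotlib 3.10.9 were used.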

Additional observations from a re-analysis of the deposited data

Results flagged for a closer look

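The level of Ppara was 563 CPM among the cortical barcodes with fewer than 10 Slc12a1 counts and 492 CPM among the medullary ones, which enter no comparison between TAL classes. These values are given here because they come from barcodes outside the main measurement and lie above the level of each TAL class in the same library.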

How the results depend on the processing

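Each of 9 comparisons was recomputed under 10 other settings set at the outset and 2 chosen after seeing the data. The number of members past 1.5-fold stayed within 1.5 times the reported number in 78 of 108 cases, and in all cases for MD against TAL-α or TAL-β, with a member left at 0 in only one of the classes counted as past the fold. Of 262 recomputed ratios for members reported past the fold, 235 stayed past it in the same direction. Ratios that a level of 0 left without a value are not among the 262. For TAL-β over TAL-α in cortex (0 reported) the number was 2 without barcodes holding other cell types' markers, with classes from the deposited clusters, with the free RNA profile subtracted after that removal, and with that removal plus stricter classes. It was 1 with stricter classes, thinning or the mean CPM per barcode, and 5 with the free RNA profile subtracted. In medulla (0 reported) the number was 1 without doublets, without marked barcodes, with stricter classes, thinning, the mean per barcode or subtraction after removal, and 2 with the clusters, the subtraction or removal plus stricter classes. There 51.6% of all genes were past the fold with the subtraction, and 14.9% to 22.0% in the other settings. For TAL-γ over TAL-α the number was 2 with the subtraction, where 27.4% of all genes were past the fold. For TAL-γ over TAL-β (1 reported) the number was 2 without marked barcodes, with stricter classes, the clusters, subtraction after removal or removal plus stricter classes, and 3 with the subtraction. There 55.0% of all genes were past the fold with the subtraction, and 18.7% to 25.2% in the other settings. For medulla over cortex it was 1 in TAL-α (2 reported) and 1 in TAL-β (3 reported) with thinning or the mean per barcode, and 0 in TAL-β with the clusters or removal plus stricter classes. Ppara turned to higher in medulla without marked barcodes (1.66 in TAL-α, 1.56 in TAL-β), with subtraction after removal (1.79 and 1.67), with removal plus stricter classes (1.58 and 1.32) and, in TAL-β, with the clusters (1.36). Ppargc1a in TAL-β turned to lower in medulla, at 0.868, with the subtraction. That subtraction took 42.2% to 92.1% of a class's counts, while after removal it took 1.95% to 5.70%. It left no ratio for Esrra, Esrrb, Ppargc1a and Tfam in cortical MD, where a level came to 0. In medullary MD it left none for Esrra, Esrrb, Ppargc1a, Ppargc1b, Ppara and Tfam, and these were all the members counted there as past the fold. The cause of these changes was not tested. Over the 11 settings that gave a value, all but that subtraction, the ratio of Esrrb in cortical MD to TAL-α ran from 0.0886 to 0.291 and that of Ppargc1a from 0.192 to 0.480. Over all 12 settings that of Ppargc1a in medullary to cortical TAL-α from 1.94 to 2.38. The quality filter removed 1 barcode. No paired analysis was possible because each region has 1 library and no replicate number. Depth limits the values of Tfam and of the 78 medullary MD barcodes.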
